A study of Mus musculus with 29 samples.

Results

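Leukocyte microRNAs (miRNAs) were followed through mouse serum and tibialis anterior muscle by 5 named mature miRNAs: mmu-miR-142-3p, mmu-miR-142-5p, mmu-miR-223-3p, mmu-miR-150-5p and mmu-miR-342-3p, written below without the species prefix. They were chosen by name from the 1183 miRNAs in the deposited table, and all 5 are among the 695 that have a value for every library. The data are small RNA sequencing libraries from C57BL/6 mice, 29 in all. The old groups were 24 months old, with 4 serum and 5 muscle libraries. The disuse groups were a disuse-induced atrophy model at 6 months of age, with 5 serum and 5 muscle libraries. The young groups were controls of 6 months, again with 5 libraries from each source. Neither the way disuse was imposed nor its length is given in the sources used here. Because no label ties a library to its own animal, p-values reflect the spread among libraries, which may in part be technical.

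A miRNA is cut from a hairpin precursor and guides repression of messenger RNAs that pair with its seed, a short stretch near its 5′ end. The Mir142 hairpin is expressed throughout the blood lineages and gives both miR-142-5p and miR-142-3p. miR-223-3p is a myeloid miRNA, abundant in neutrophils and monocytes, where it restrains granulocyte output and activation, and it is also carried by platelets. miR-150-5p accumulates in mature B and T lymphocytes and represses Myb, a transcription factor of early lymphoid cells. miR-342-3p is abundant in lymphocytes and is processed from an intron of Evl, which encodes a regulator of the actin cytoskeleton.

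The mature sequences are shown to make clear that these are separate miRNAs, read apart from each other and not as isoforms of a family. They are RefSeq sequences, build GRCm38.p6, written 5′ to 3′ with the seed (bases 2 to 8) in capitals, and 4 of the 5 members matched an entry.
miR-142-5p: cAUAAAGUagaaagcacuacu
miR-142-3p: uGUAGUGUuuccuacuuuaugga
miR-223-3p: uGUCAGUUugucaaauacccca
miR-342-3p: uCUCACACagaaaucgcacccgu
No seed was shared among these 4, nor with any other of the 1679 mature miRNAs in the RefSeq table. The closest other mature miRNA differed by at least 4 edits (miR-3964 against miR-142-5p) and by 7 to 9 edits for the other 3. The 2 arms of Mir142 lie in a hairpin of 64 bases, at chr11:87756864-87756927 on the plus strand, in which capitals mark miR-142-5p and then miR-142-3p.
Mir142: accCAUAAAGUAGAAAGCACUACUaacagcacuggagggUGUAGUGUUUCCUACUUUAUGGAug
The hairpin lies within the long noncoding RNA gene Mir142hg without overlapping its exons, and Mir142b is annotated on the other strand over the same bases. miR-223-3p lies at chrX:96242884-96242905 on the plus strand, inside annotated exons of the noncoding gene F630028O10Rik. miR-342-3p lies at chr12:108658680-108658702 on the plus strand, in an intron of Evl.

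Total counts were 45176 to 309133 in serum libraries and 254624 to 5943445 in muscle libraries. A count of 0 allowed up to 9.70 to 66.4 CPM (counts scaled to a common library total) in serum and 0.505 to 11.8 CPM in muscle. The shallowest libraries were old serum 4, disuse muscle 3 and young muscle 1. Median depth was 2825032 counts in old muscle, 2298437 in disuse muscle and 535754 in young muscle. The tissue labels were checked with 6 striated muscle miRNAs, whose summed level was 903 to 3619 CPM in serum and 334700 to 545426 CPM in muscle. In bulk muscle, fewer leukocytes and less of a miRNA per leukocyte cannot be told apart. Serum is the cell-free part of blood, so its values measure neither directly, and the cells of origin were not tested. Trizol was used for muscle and a serum kit, with a much smaller RNA input, for serum, so source and preparation cannot be told apart either.

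The 2 sources differed in which of the 5 miRNAs was most counted. In serum, miR-142-5p led, with 45.5 to 73.6% of the counts of the 5 members. In muscle, miR-150-5p held 95.4 to 98.8% of them, while in serum it held 10.4 to 29.1%. The 5 together took a like share of each library, 1.07 to 2.28% of serum counts and 1.23 to 3.02% of muscle counts.

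**Figure D1:**
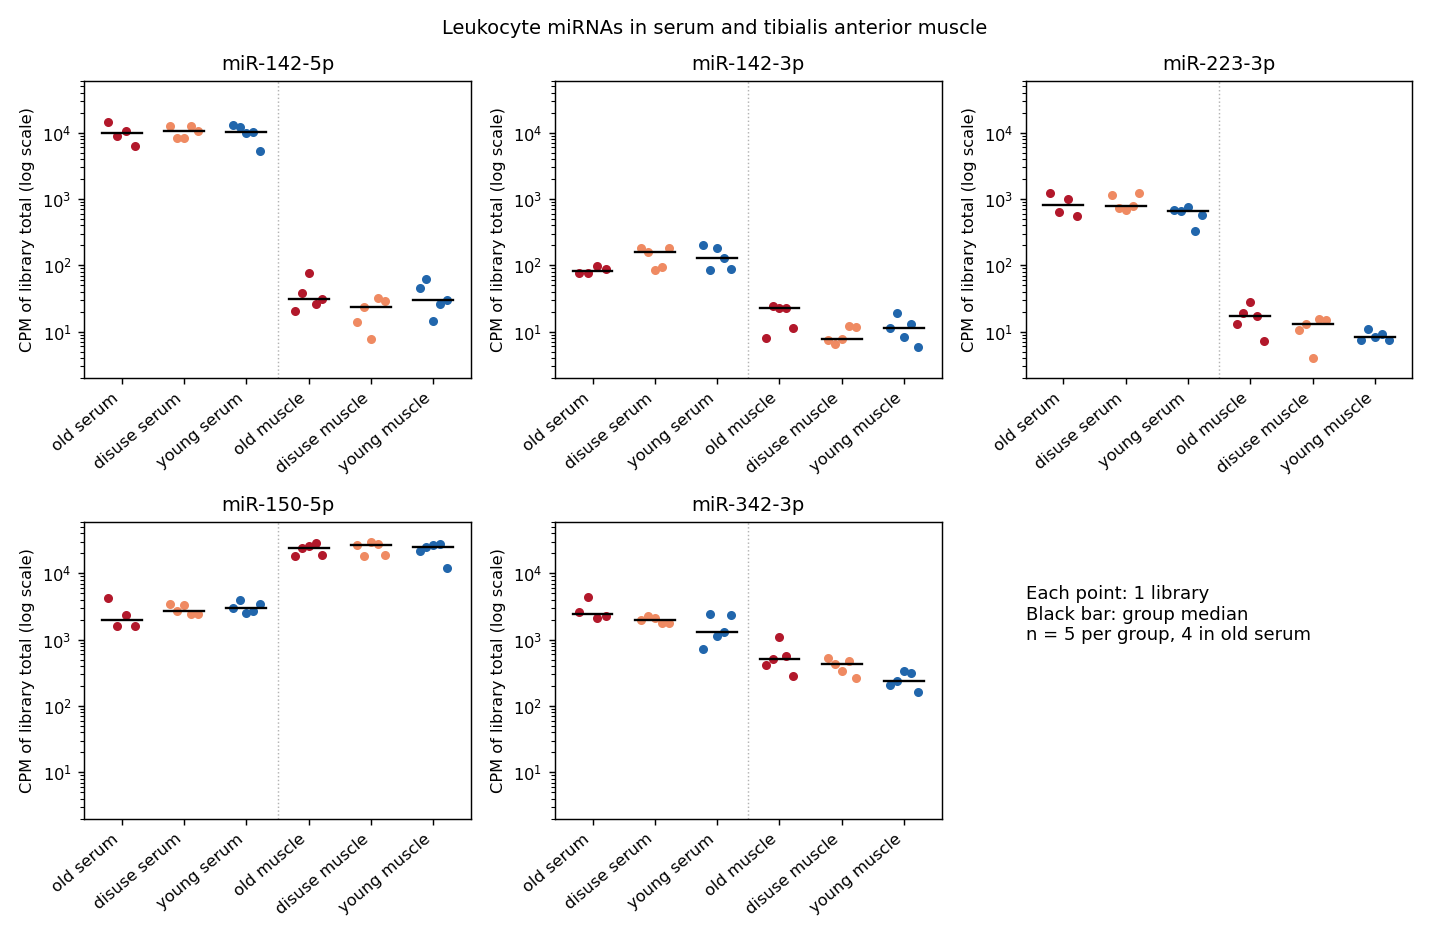
Level of each of the 5 miRNAs in CPM of the library total (log axis) in old, disuse and young serum and in old, disuse and young muscle. Points are libraries and black bars are group medians. All serum points lie above all muscle points for miR-142-5p, miR-142-3p and miR-223-3p, and the reverse holds for miR-150-5p.

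miR-142-5p, the 5′ arm of the pan-leukocyte hairpin, ranked 13th to 22nd among miRNAs in serum libraries. It took 0.535 to 1.47% of serum counts, against 0.000785 to 0.00768% of muscle counts. In edgeR's quasi-likelihood test with Benjamini-Hochberg adjustment, its log2 fold change of serum over muscle was 7.78 ± 0.43 (SE) in old mice, 8.52 ± 0.45 in disuse mice and 7.71 ± 0.44 in young mice. The adjusted p values were 1.36e-17, 3.42e-18 and 2.50e-17 in the same order. The other arm, miR-142-3p, was sparse in both sources, with 4 to 37 counts per serum library and 2 to 65 per muscle library. It was higher in serum by 2.06 ± 0.37, 3.59 ± 0.35 and 3.12 ± 0.36 on the log2 scale in old, disuse and young mice.

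miR-223-3p, the myeloid member, had 25 to 245 counts per serum library and 1 to 78 per muscle library. It was higher in serum by 5.42 ± 0.31 in old, 5.85 ± 0.32 in disuse and 5.58 ± 0.34 in young mice (log2, SE). miR-342-3p, a lymphoid member, took 0.0733 to 0.439% of serum counts and 0.0163 to 0.109% of muscle counts. Its log2 fold changes of serum over muscle were smaller, at 2.13 ± 0.38, 2.01 ± 0.37 and 2.35 ± 0.38 in old, disuse and young mice. miR-150-5p, the other lymphoid member, was lower in serum, with log2 fold changes of -3.50 ± 0.31, -3.38 ± 0.28 and -3.20 ± 0.27 in old, disuse and young mice. It ranked 28th to 48th in serum libraries and 5th to 13th in muscle libraries. The 2 lymphoid members thus stood on opposite sides of the comparison between sources. In muscle, miR-150-5p took 1.21 to 2.99% of counts, against 0.000785 to 0.00768% for miR-142-5p. Lymphoid is used here as a name for these 2 members, and which cells carried miR-150-5p in muscle was not tested.

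All 5 members passed in each comparison of sources, 4 higher and 1 lower. That count is close to the background, since 76.8% of the 241 miRNAs tested passed in old, 81.7% in disuse and 80.9% in young mice. The sizes say more than the calls. miR-142-5p had the 17th, 11th and 20th largest absolute log2 fold change of the 241 in old, disuse and young mice. miR-223-3p was 36th, 32nd and 39th, and miR-150-5p was 78th, 74th and 80th. miR-142-3p was 114th, 64th and 81st, and miR-342-3p was 108th, 119th and 101st. The median absolute change over all miRNAs tested was 1.92, 2.00 and 1.95 in old, disuse and young mice. Levels of the erythroid list (miR-451a, miR-144-3p and miR-144-5p, which mark red cells and their precursors) also differed between sources, summing to 5709 to 18636 CPM in serum and 24.9 to 112 CPM in muscle. Their part in the leukocyte values was not tested.

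The 2 arms of Mir142 were counted in very different proportions in the 2 sources. miR-142-5p exceeded miR-142-3p by 51.7- to 179.9-fold in serum libraries, with a median of 73.9. In muscle libraries the excess was 1.00- to 5.06-fold, with a median of 2.60. The lowest serum library lay above the highest muscle library. Within a source, the log2 ratio of miR-142-3p to miR-142-5p showed no difference between groups that passed. The largest difference between groups was -0.57, with -6.76 ± 0.62 in old serum and -6.19 ± 0.56 in young serum (SD, n = 4 and 5, exact permutation p = 0.222).

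In muscle, miR-342-3p was the 1 member that passed with age. It had 442, 461, 1060, 499.5 and 303.6 CPM in old muscle, scaled by TMM factors within muscle. It had 204, 241, 319.7, 295.6 and 172 CPM in young muscle. The old libraries were higher, with an overlap made by old muscle 5, which lay below young muscle 3 at 319.7 CPM. Old muscle averaged 553 ± 293 CPM and young muscle 246 ± 61.5 CPM (SD, n = 5 each). The log2 fold change was 1.17 ± 0.27 (SE), or 2.25-fold, with an adjusted p of 0.00679 in edgeR over 341 miRNAs. It was 1 of 4 miRNAs that rose, while 16 fell. Across all miRNAs tested, 5.87% passed, and 1 of the 5 members did. Old muscle 3 was well above the other 4 old libraries. Without it the log2 fold change was 0.82, with an adjusted p of 0.0246.

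miR-342-3p had 529, 462, 341, 476.5 and 287.5 CPM in disuse muscle, with a mean of 419 ± 101 CPM (SD, n = 5). Only disuse muscle 5 lay below the highest young library. Disuse over young muscle had a log2 fold change of 0.78 ± 0.27, with an unadjusted p of 0.00888 and an adjusted p of 0.267 in edgeR. Of the 341 miRNAs, 0.293% passed in that comparison, which is 1 miRNA and no member. Disuse and old muscle share the young controls, so their differences from young muscle are not independent of each other. Old muscle was 0.39 ± 0.27 higher than disuse muscle on the log2 scale (adjusted p = 0.538), a comparison in which 3.52% of miRNAs and no member passed.

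miR-223-3p was sparse in muscle and near the limit of detection in the shallower libraries, among them disuse muscle 3 and young muscle 1. It had 14.1, 17.2, 26.9, 14.9 and 7.78 CPM in old muscle, from 23 to 78 counts. Disuse muscle had 10.7, 14.3, 4.01, 15.8 and 15.9 CPM, from 1 to 63 counts. Young muscle had 7.29, 11.3, 7.66, 8.74 and 7.75 CPM, from 2 to 24 counts. In old muscle 4 of 5 libraries lay above every young library, and so did 3 of 5 in disuse muscle. The log2 fold change was 0.85 ± 0.34 for old over young muscle (unadjusted p = 0.0186, adjusted p = 0.123) and 0.60 ± 0.35 for disuse over young muscle (adjusted p = 0.644) in edgeR. Leaving out old muscle 5, the lowest old library, gave 1.04 with an adjusted p of 0.0432, so that a single library decides on which side of the threshold it falls.

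miR-150-5p varied least among the 5 in muscle, with a coefficient of variation of 18.7% over the 15 libraries. It had 19600, 21476, 24800, 25078 and 20374 CPM in old muscle and 26546, 20021, 30516, 27859 and 20377 CPM in disuse muscle. Young muscle had 21298, 25362, 25176, 25876 and 12787 CPM. The groups overlapped throughout, and the lowest value of the 15 was in young muscle 5. Old over young muscle gave a log2 fold change of 0.01 ± 0.18 and that of disuse over young muscle 0.18 ± 0.18, with adjusted p values of 0.984 and 0.836 in edgeR. It rested on 5845 to 108621 counts per muscle library.

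The Mir142 arms had low counts in muscle. miR-142-3p had 8.48 to 22.4 CPM in old, 7.03 to 12.6 CPM in disuse and 6.12 to 19.2 CPM in young muscle. Its largest difference was old over disuse muscle, at 0.79 ± 0.33 on the log2 scale (unadjusted p = 0.0264, adjusted p = 0.225 in edgeR). miR-142-5p had 22.2 to 74.7 CPM in old, 8.02 to 32.5 CPM in disuse and 13.4 to 62.8 CPM in young muscle. Its log2 fold changes were 0.04 ± 0.37 for old over young, -0.59 ± 0.38 for disuse over young and 0.62 ± 0.36 for old over disuse muscle, none of which passed.

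**Figure D2:**
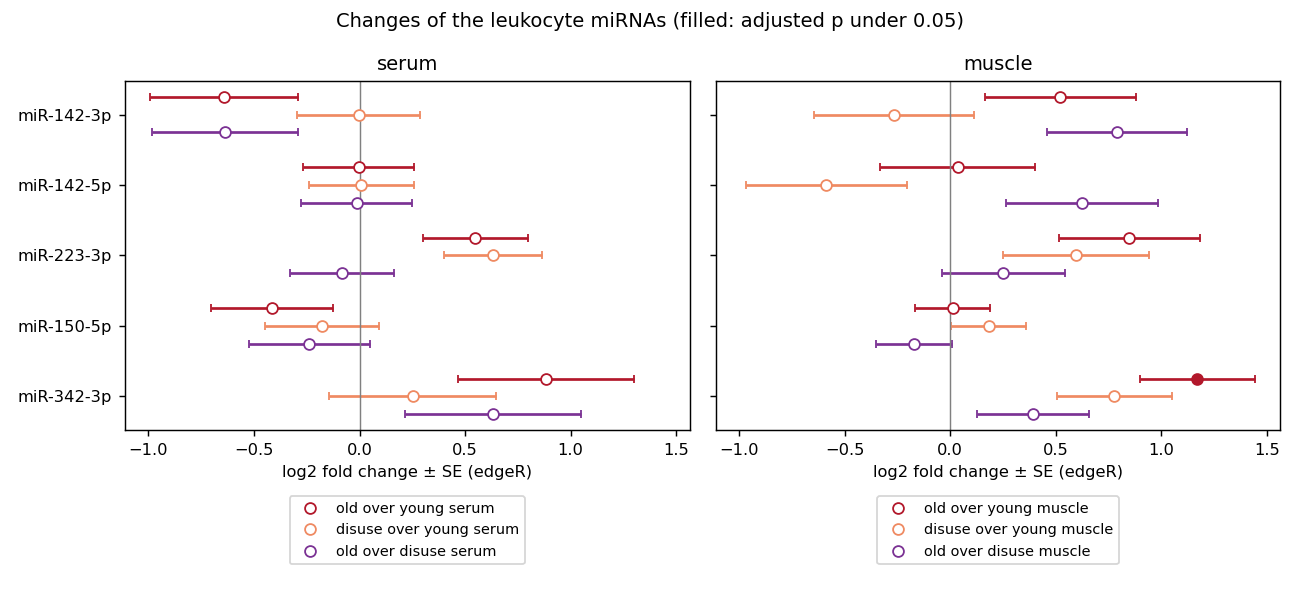
Log2 fold changes ± SE from edgeR for the 5 miRNAs, in serum (left) and muscle (right), for old over young, disuse over young and old over disuse. The filled point, miR-342-3p in old over young muscle at 1.17, is the one with an adjusted p under 0.05.

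In serum, none of the 5 members passed within the source. miR-223-3p had 1119, 865, 853 and 549.8 CPM in old serum and 982, 796, 819.9, 669 and 1258 CPM in disuse serum. Young serum had 501, 671, 640.3, 464 and 652 CPM. In old serum 3 of 4 libraries lay above all young libraries, and in disuse serum 4 of 5 did, with disuse serum 4 below the highest young library by a small margin. The log2 fold change was 0.55 ± 0.25 for old over young serum (unadjusted p = 0.0395, adjusted p = 0.181) and 0.63 ± 0.23 for disuse over young serum (unadjusted p = 0.0141, adjusted p = 0.358) in edgeR. Over the 165 miRNAs tested in serum, 9.7% passed for old over young, 0% for disuse over young and 2.42% for old over disuse. For disuse over young serum, the 0 that passed in edgeR compare with 20 at an unadjusted p under 0.05 and with 0 in DESeq2.

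miR-342-3p had 2339, 6036, 1799 and 2243 CPM in old serum. Disuse serum had 1681, 2499, 2568, 1497 and 1829.7 CPM, and young serum 539.9, 2490, 956, 1826 and 2677 CPM. The young libraries were spread over the widest relative range and overlapped both other groups. The log2 fold change was 0.88 ± 0.42 for old over young serum (unadjusted p = 0.0493, adjusted p = 0.214) and 0.25 ± 0.40 for disuse over young serum (adjusted p = 0.932) in edgeR. Without old serum 2, the old over young value was 0.32 (adjusted p = 0.751), and old over disuse serum was 0.075, against 0.63 with it.

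miR-150-5p had 3774, 2237, 2062 and 1584 CPM in old serum. Disuse serum had 2903, 2923, 3956, 2035 and 2459 CPM, and young serum 2231, 3995, 2117, 3872 and 3931 CPM. The 3 groups overlapped. Old serum 1 was close to the 3 higher young libraries, and the other 3 old libraries were close to or below the 2 lower ones. Old over young serum gave a log2 fold change of -0.42 ± 0.29 (adjusted p = 0.424 in edgeR). miR-142-5p had 6180 to 13209 CPM in old, 8981 to 10873 CPM in disuse and 6156 to 14614 CPM in young serum, and its 3 log2 fold changes in serum were within 0.02 of 0, with an SE of 0.25 to 0.26. miR-142-3p had 67.8 to 105.5 CPM in old, 79.2 to 183 CPM in disuse and 87.5 to 181 CPM in young serum, with a log2 fold change of -0.64 ± 0.35 for old over young (adjusted p = 0.303 in edgeR).

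An interaction term, fitted to the 29 libraries and 241 miRNAs together, asked whether a change in serum differed from that in muscle. No member passed in edgeR, for age (0.83% of all miRNAs passed, with 34 at an unadjusted p under 0.05) or for disuse (0% passed, with 24 at an unadjusted p under 0.05). The largest for age was miR-142-3p, whose change in serum was 1.06 ± 0.51 below that in muscle on the log2 scale (a difference of -1.06, adjusted p = 0.327). The largest for disuse was miR-142-5p, with a difference of 0.80 ± 0.49 (adjusted p = 0.716).

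The myeloid member was then set against each lymphoid member within a library, as a log2 ratio of counts with 0.5 added to each, which does not depend on how libraries are scaled. In serum, miR-150-5p exceeded miR-223-3p by 1.95- to 8.31-fold. In muscle it exceeded it by 918- to 5075-fold. Against miR-342-3p the contrast was smaller, with miR-342-3p exceeding miR-223-3p by 1.08- to 6.96-fold in serum and 17.9- to 57.0-fold in muscle. Both upper ends in muscle came from disuse muscle 3. That library held 1 count of miR-223-3p, so the 0.5 added to each count sets much of its ratios.

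The log2 ratio of miR-223-3p to miR-150-5p was -1.75, -1.37, -1.27 and -1.51 in old serum. It was -1.56, -1.87, -2.27, -1.60 and -0.97 in disuse serum, and -2.15, -2.57, -1.72, -3.05 and -2.58 in young serum. Old serum was higher save for an overlap of 1 library on each side, and the difference of means was 0.94 (exact permutation p = 0.0317, two-sided). Disuse serum was 0.76 above young serum (exact permutation p = 0.0476). In muscle, the ratio averaged -10.51 ± 0.55 in old and -11.17 ± 0.33 in young libraries (SD, n = 5 each, exact permutation p = 0.0635).

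The log2 ratio of miR-223-3p to miR-342-3p gave no such contrast. It averaged -1.74 ± 0.84 in old serum and -1.31 ± 0.90 in young serum (SD, n = 4 and 5, exact permutation p = 0.508). In muscle it averaged -5.06 ± 0.23 in old and -4.70 ± 0.37 in young libraries (SD, n = 5 each, exact permutation p = 0.0873). In old over young comparisons the differences were thus positive against miR-150-5p, at 0.94 in serum and 0.66 in muscle, and negative against miR-342-3p, at -0.42 in serum and -0.36 in muscle. None of the 4 passed after adjustment. The 2 muscle differences depended on the constant added to each count. With a larger constant they reached 0.045 against miR-150-5p and -0.94 against miR-342-3p. The serum differences stayed at 0.93 to 0.94 and -0.42 to -0.41.

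The 2 lymphoid members were also set against each other. The log2 ratio of miR-342-3p to miR-150-5p was -5.47, -5.54, -4.55, -5.65 and -6.07 in old muscle. It was -5.65, -5.44, -6.48, -5.87 and -6.15 in disuse muscle, and -6.69, -6.72, -6.29, -6.45 and -6.21 in young muscle. All 5 old libraries lay above all 5 young ones, by a mean of 1.02 (exact permutation p = 0.00794, the smallest that 5 against 5 libraries allow). Disuse muscle was 0.56 above young muscle and overlapped it (exact permutation p = 0.0397).

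In serum the same ratio was -0.69, 1.43, -0.20 and 0.50 in old libraries. It was -0.79, -0.23, -0.62, -0.44 and -0.43 in disuse libraries, and -2.04, -0.68, -1.14, -1.08 and -0.55 in young libraries. Old serum was 1.36 above young serum (exact permutation p = 0.0476) and disuse serum 0.60 above it (exact permutation p = 0.0397), or 0.36 without young serum 1. In all, 24 comparisons of 4 ratios were tested, and none passed after Benjamini-Hochberg adjustment, the smallest adjusted exact permutation p being 0.190. The smallest possible exact permutation p was 0.00794 for 5 against 5 libraries and 0.0159 for 4 against 5. Among 24 tests, a single comparison at that minimum could not pass, so the lack of a call says little about any 1 ratio.

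**Figure D3:**
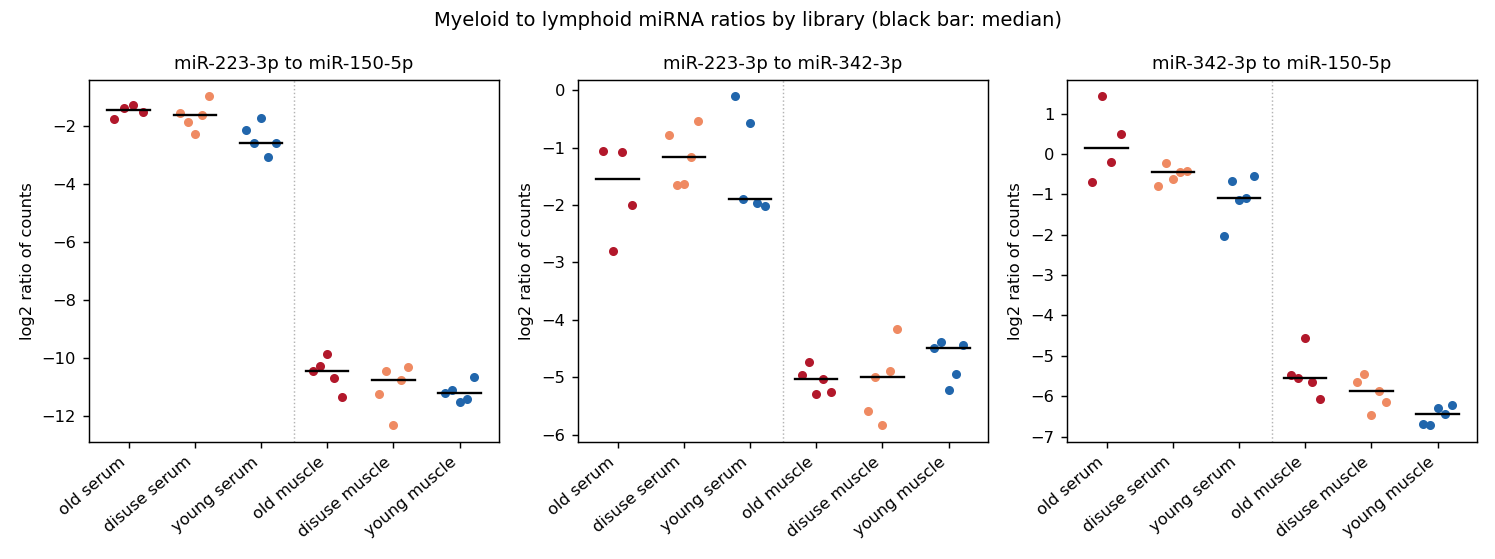
Log2 ratios of counts per library for miR-223-3p to miR-150-5p, miR-223-3p to miR-342-3p and miR-342-3p to miR-150-5p, in old, disuse and young serum and old, disuse and young muscle. Points are libraries and black bars medians. In the right panel the old muscle points, from -6.07 to -4.55, all lie above the young muscle points, from -6.72 to -6.21.

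The other arms of the hairpins were then examined. miR-342-5p, from the same hairpin as miR-342-3p, had 24.9, 36.1, 71.95, 35.6 and 26.6 CPM in old muscle, 53.2, 27.7, 36.1, 33.8 and 35.0 CPM in disuse muscle and 29.2, 37.1, 51.7, 48.97 and 38.3 CPM in young muscle. These groups overlapped, with a log2 fold change of -0.08 ± 0.28 for old over young muscle (adjusted p = 0.915 in edgeR) and -0.15 ± 0.29 for disuse over young muscle (adjusted p = 0.881).

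The log2 ratio of miR-342-3p to miR-342-5p was 4.15, 3.67, 3.88, 3.80 and 3.51 in old muscle. It was 3.31, 4.06, 3.17, 3.81 and 3.03 in disuse muscle, and 2.73, 2.69, 2.61, 2.57 and 2.16 in young muscle. Neither old nor disuse muscle overlapped young muscle. The differences were 1.25 for old and 0.92 for disuse over young muscle. Each had an exact permutation p of 0.00794 and an adjusted p of 0.0714 over 18 comparisons of 3 arm ratios. That exact p is the smallest that 5 against 5 libraries allow. A lower adjusted p under another constant would come from the other comparisons, not from a clearer separation here. The ratio of miR-342-3p to miR-342-5p was examined after the values had been seen. miR-342-5p rested on 8 to 94 counts in young muscle and on 0 to 7 counts in serum. miR-223-5p had 0 to 22 counts per muscle library and miR-150-3p 0 to 28.

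**Figure D4:**
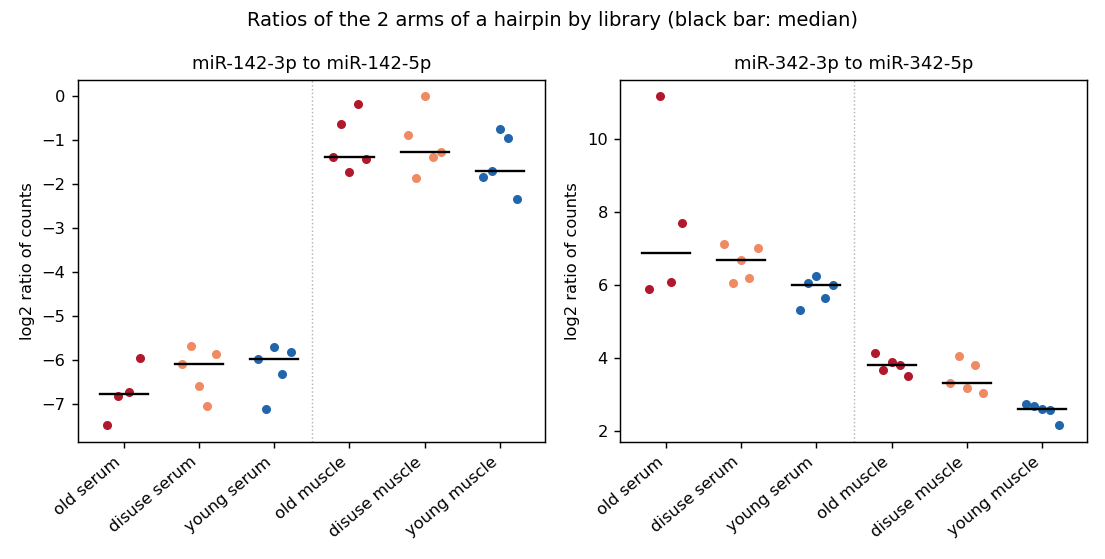
Log2 ratios of counts of the 2 arms of a hairpin per library, for miR-142-3p to miR-142-5p (left) and miR-342-3p to miR-342-5p (right), in old, disuse and young serum and old, disuse and young muscle. Points are libraries and black bars medians. Serum lies below muscle on the left, and on the right the young muscle points, from 2.16 to 2.73, lie below all old and disuse muscle points, from 3.03 to 4.15. The top old serum point, at 11.16, comes from a library with 0 counts of miR-342-5p.

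Members were compared across libraries after each group's mean had been subtracted, in 8 relations. In muscle, miR-142-3p and miR-223-3p had a Pearson r of 0.50 and a Spearman rho of 0.70 over 15 libraries (permutation p = 0.0555 and 0.00447, adjusted 0.0974 and 0.0358), and r was 0.528 without the 2 libraries farthest from the median. miR-142-3p and miR-142-5p had an r of 0.577 and a rho of 0.625 (adjusted permutation p = 0.0974 and 0.0461), with r at 0.451 without the 2 farthest. In serum, miR-342-3p and miR-150-5p had an r of 0.581 and a rho of 0.635 over 14 libraries (adjusted permutation p = 0.0974 and 0.0461), with r at 0.632 without the 2 farthest. That serum relation depended on the processing. With CPM from library totals, or with group means kept, its r was 0.133 to 0.270 (adjusted permutation p of 0.579 to 0.653). No Pearson r passed after adjustment. For miR-142-3p and miR-142-5p in serum, r was 0.0707 (permutation p = 0.810).

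The most similar miRNAs were listed by Pearson r of log2 CPM over the libraries of a source, groups included, as a description. In muscle, miR-342-3p was most like miR-149-5p (r = 0.736), miR-29a-3p (0.729) and miR-18a-3p (0.697) among 340 others. miR-223-3p was most like miR-24-2-5p (r = 0.725), and miR-150-5p like miR-423-3p (0.620). For miR-142-3p, the 3 most similar included 2 other members, miR-142-5p (r = 0.616) and miR-223-3p (0.579), after miR-338-3p (0.623). In serum, miR-342-3p was most like miR-10a-5p (r = 0.944 over 14 libraries) and miR-142-5p like miR-130b-3p (0.869), among 164 others. These points share libraries and depth.

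A list of 12 other leukocyte miRNAs was set beside the 5. It held miR-223-5p, miR-150-3p and miR-342-5p, the other arms of the members' own hairpins, so it was not independent of the 5. The rest were miR-146a-5p, miR-146b-5p, miR-155-5p, miR-181a-5p, miR-181b-5p, miR-21a-5p, miR-17-5p, miR-20a-5p and miR-92a-3p. The miRNAs of this list did not share a direction between sources. Of 10 tested, 4, 5 and 5 were higher in serum than in muscle in old, disuse and young mice, and 4 were lower in each. Over all 241 miRNAs tested, 82, 91 and 90 were higher and 103, 106 and 105 lower in the same order. In muscle 11 could be tested and 0 passed in any of the 3 comparisons in edgeR, with median log2 fold changes of -0.08 for old over young, -0.15 for disuse over young and 0.15 for old over disuse muscle. The medians over all miRNAs tested were -0.01, -0.0019 and -0.01 in the same order. In serum 6 could be tested. miR-146a-5p, which damps Toll-like receptor signalling, rose by 1.21 ± 0.30 on the log2 scale in old over young serum (adjusted p = 0.0184 in edgeR) and by 1.28 ± 0.30 in old over disuse serum (adjusted p = 0.0304). miR-181a-5p, a regulator of T-cell receptor sensitivity, and miR-181b-5p fell by 0.85 ± 0.21 and 1.12 ± 0.31 on the log2 scale in old over young serum (adjusted p = 0.0184 and 0.0274). The other 3 did not pass for old over young, and 0 of 6 passed for disuse over young serum. These serum calls were not stable. For old over young serum, miR-146a-5p lost its call without old serum 1 or old serum 2 (adjusted p = 0.0579 and 0.0782 in edgeR). Over 19 alternatives each, the calls of miR-181a-5p and miR-181b-5p were lost in 5 and 7, with adjusted p values up to 0.219 and 0.137. Without young serum 1, the log2 change of miR-181b-5p was -0.70. For old over disuse serum, the call of miR-146a-5p was lost in 10 of 19, among them each that left out 1 of the 4 old serum libraries, with adjusted p values up to 0.167.

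Markers of other cells moved with some of these comparisons. Of the 3 erythroid miRNAs, miR-451a and miR-144-5p fell in old over young serum, by 0.82 ± 0.24 and 2.16 ± 0.48 on the log2 scale (adjusted p = 0.0363 and 0.0154 in edgeR). The call of miR-451a was lost in 11 of 19 alternatives, among them each that left out 1 of the 4 old serum libraries, with adjusted p values up to 0.268. Without young serum 1, its log2 change was -0.50. That of miR-144-5p was lost in 1 of 18, without old serum 2 (adjusted p = 0.0634). The list summed to 5709 to 7742 CPM in old, 9320 to 12040 CPM in disuse and 8696 to 18636 CPM in young serum. Its part in the serum values of the leukocyte miRNAs was not tested. In muscle the list summed to 35.8 to 59.0 CPM in old, 36.1 to 47.4 CPM in disuse and 24.9 to 112 CPM in young libraries, which overlapped. Among fibroblast and smooth muscle, endothelial and striated muscle miRNAs, 0 of 5, 0 of 2 and 0 of 6 passed for old over young muscle. The fibroblast and smooth muscle list summed to 11936 to 45967 CPM in old muscle and 14509 to 19066 CPM in young muscle.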

How the data were processed

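Small RNA was sequenced from tibialis anterior muscle and serum, with the TruSeq small RNA kit per the labels' protocols. The authors deposited a table of unnormalized counts per mature miRNA and library. In 488 of its 1183 miRNAs a value is missing, so the last column was recorded as other, although its values in the 695 complete miRNAs, as the authors deposited them, are counts. Only complete miRNAs were used in the main fits. Which value is missing in the 488 is not known. If it is the first, they hold 0.0518% of muscle counts. Bowtie and mm10 are named per the submitters' processing notes, and the counting rule is not given in the sources used here. Libraries of a group differed beyond counting noise in all 56 pairs (chi-square per degree of freedom of at least 13.4).

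Counts were tested with edgeR 4.0.16 (quasi-likelihood, TMM, filterByExpr) in R 4.3.3, over 15 muscle libraries, 14 serum libraries or all 29, with Benjamini-Hochberg adjustment at 0.05. The SE is the size of a log2 fold change divided by the square root of F. CPM were scaled by TMM factors within a source. Ratios took counts plus 0.5, were tested by exact permutation and correlations by 100000 permutations, both two-sided, with SciPy 1.17.1. The scripts were tested on simulated data. Alternatives were DESeq2 1.42.0, voom in limma 3.58.1, other scalings and filters, and thinning to the shallowest library. Others were all miRNAs with the missing value read as the first, the replicate block and leaving out each library. The limits given for a count of 0 cover counting error only, because amplified reads that carry no molecular identifier need not come from separate molecules. Named miRNAs are the 5 members, the list members that passed and, for each member and source, the 3 most similar miRNAs, of which some are printed. The members and lists were chosen with earlier results of these data known.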

Additional observations from a re-analysis of the deposited data

Results flagged for a closer look

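Among 54 sets of group values examined, 3 held a library far from the others of its group. Chance alone gives such a gap in about 1 in 20 groups. miR-342-3p reached 1060 CPM in old muscle 3, against 303.6 to 499.5 CPM in the other 4 old muscle libraries, and miR-142-5p reached 74.7 CPM in the same library. miR-342-3p reached 6036 CPM in old serum 2, against 1799 to 2339 CPM in the other 3 old serum libraries. The causes were not tested.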

How the results depend on the processing

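Of 1842 recomputed values of 110 results, 1683 kept their direction and their side of the threshold, and 63 changed sign. miR-342-3p in old over young muscle passed under all 20 alternatives, from 0.82 to 1.36 on the log2 scale with adjusted p values of 0.000676 to 0.0396. Its change was 0.95 with upper-quartile factors, which moved the median of all miRNAs to -0.21. Leaving out each library in turn gave 1 to 2 members passing in that comparison. Counts plus 5 were chosen after seeing the values. The miR-342-3p to miR-342-5p adjusted p was then 0.0476 for old and disuse over young muscle, with no lower exact p.

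The erythroid and other leukocyte calls in serum lost their side of the threshold 36 times, among them miR-181a-5p, miR-181b-5p and miR-451a with library totals. The sign changes were in values near 0. For old over young muscle, miR-142-5p was -0.19 with upper-quartile factors and -0.052 with voom, and miR-150-5p was -0.19 with upper-quartile factors and -0.012 when thinned. For old over young serum, miR-142-5p was 0.067 with DESeq2's factors and with DESeq2, 0.028 with voom, 0.057 with no filter and 0.018 with only the 2 groups. For disuse over young serum, miR-142-3p was 0.084 with DESeq2's factors, 0.077 with DESeq2, 0.069 with upper-quartile factors, 0.015 with library totals, 0.18 with no filter and 0.13 with only the 2 groups, and miR-150-5p was 0.000110 when thinned. For old over disuse muscle the ratio of miR-223-3p to miR-342-3p was -0.038 with counts plus 1 and -0.32 with counts plus 5, and that of miR-142-3p to miR-142-5p was -0.028 with counts plus 5. The ratio of miR-223-3p to miR-150-5p for disuse over young muscle was -0.084 with counts plus 5. Without subtracting group means, r in serum was -0.093 for miR-142-3p with miR-223-3p and 0.014 for miR-142-3p with miR-150-5p. The causes were not tested.

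Leaving out each library in turn also changed signs. The ranges for old over young muscle were -0.35 to 0.54 (miR-142-5p) and -0.13 to 0.18 (miR-150-5p), for disuse over young muscle -0.54 to 0.23 (miR-142-3p) and for old over disuse muscle -0.0081 to 0.43 (miR-223-3p). In serum they were -0.15 to 0.25 for miR-142-5p in old over young, -0.12 to 0.16 for miR-142-3p and -0.13 to 0.19 for miR-142-5p in disuse over young, and -0.16 to 0.12 for miR-142-5p and -0.24 to 0.051 for miR-223-3p in old over disuse. For ratios they were -0.14 to 0.27 (miR-223-3p to miR-342-3p) and -0.21 to 0.29 (miR-142-3p to miR-142-5p) in old over disuse muscle, -0.017 to 0.48 (miR-223-3p to miR-150-5p) in disuse over young muscle, and -0.30 to 0.13 (miR-142-3p to miR-142-5p) and -0.017 to 0.46 (miR-223-3p to miR-342-3p) in disuse over young serum.

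The count of all miRNAs that passed was 20 for old over young muscle (7 when thinned, 36 with upper-quartile factors), 12 for old over disuse muscle (3 to 18), 16 for old over young serum (1 without old serum 2, 21 with DESeq2), 4 for old over disuse serum (0 to 6) and 1 for disuse over young muscle (0 to 2). It was 0 for disuse over young serum and for the disuse interaction (5 with no filter in each) and 2 for the age interaction (0 to 11). Between sources it was 185, 197 and 195 in old, disuse and young mice, against 108, 112 and 113 when thinned.

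In none of the 6 comparisons within a source did every pair of libraries with the same number deviate together, with a correlation over 0.1. In muscle, 0 of 5 pairs were over 0.1 for old over young and 1 of 5 in each other comparison. In serum, 2 of 4 were for old over young (up to 0.447), 2 of 4 for old over disuse (up to 0.292) and 1 of 5 for disuse over young. A library correlated best with its own number in 2 of 30 cases in muscle and 10 of 26 in serum. With a replicate block, mmu-miR-342-3p in old over young muscle was 1.09 (adjusted p = 0.00180), and 18 miRNAs passed. Among the calls of other miRNAs in serum, the replicate block took miR-451a in old over young serum to an adjusted p of 0.0508 and miR-146a-5p in old over disuse serum to 0.0617, and it changed no member's call. Depth limits miR-223-3p and both Mir142 arms in muscle, where some libraries hold fewer than 5 counts.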
